A study of Homo sapiens with 2 samples.

Results

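The HOXB genes are the 9 members HOXB2, HOXB3, HOXB4, HOXB5, HOXB6, HOXB7, HOXB8, HOXB9 and HOXB13, picked by symbol from the 58698 genes of the deposited table, where all 9 were found. They were compared in 2 cultures of MIA PaCa-2, an established human pancreatic cancer cell line. The control culture, sgGFP, carried a guide against GFP, a gene human cells lack, and is labelled wild type. The other culture, sgTPST2, carried a guide against TPST2, which encodes a Golgi enzyme that adds sulfate to tyrosines of secreted and membrane proteins, and is labelled a TPST2 knockdown. No other allele, drug or time point is named for either culture. The sources used here do not say whether a culture was a pool or a clone, nor whether the guide cut or repressed its target. Each culture gave 1 total-RNA library, so no test was made and no difference has a replicate check.

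HOX genes encode transcription factors that bind DNA through a homeodomain, a fold of helices whose last one, the recognition helix, lies in the major groove. In mammals they stand in 4 clusters (HOXA to HOXD), and their order along a cluster matches the order of their domains along the body axis, with the low-numbered genes expressed towards the head and the high-numbered ones towards the tail. Whole stretches of a cluster are kept silent by Polycomb complexes or held active by Trithorax complexes, and HOX proteins bind many sites together with the homeodomain partners PBX and MEIS.

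The 9 HOXB genes share the homeobox, the coding stretch of the homeodomain, and the coding strand is shown for the member with the highest level (HOXB2), the one with the largest difference between the libraries (HOXB6), the last gene of the compact cluster (HOXB9) and the distant HOXB13. Capitals mark the codons of the conserved tryptophan, phenylalanine, glutamine and asparagine of the recognition helix. The sequences are from GENCODE release 29 transcripts (GRCh38, minus strand), run 5′ to 3′, and each lies within 1 coding exon, at chr17:48543533-48543712, chr17:48596473-48596652, chr17:48622921-48623100 and chr17:48726820-48726999.
HOXB2: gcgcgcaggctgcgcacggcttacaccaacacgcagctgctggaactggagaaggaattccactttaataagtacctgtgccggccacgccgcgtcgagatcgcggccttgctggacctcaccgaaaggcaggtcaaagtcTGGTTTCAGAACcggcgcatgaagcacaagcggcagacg
HOXB6: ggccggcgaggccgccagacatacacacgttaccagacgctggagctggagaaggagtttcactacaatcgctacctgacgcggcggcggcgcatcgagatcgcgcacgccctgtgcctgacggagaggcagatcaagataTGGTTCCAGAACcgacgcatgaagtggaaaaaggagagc
HOXB9: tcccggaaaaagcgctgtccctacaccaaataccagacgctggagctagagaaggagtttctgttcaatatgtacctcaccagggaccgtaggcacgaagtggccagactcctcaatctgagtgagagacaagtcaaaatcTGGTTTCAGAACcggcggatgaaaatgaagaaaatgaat
HOXB13: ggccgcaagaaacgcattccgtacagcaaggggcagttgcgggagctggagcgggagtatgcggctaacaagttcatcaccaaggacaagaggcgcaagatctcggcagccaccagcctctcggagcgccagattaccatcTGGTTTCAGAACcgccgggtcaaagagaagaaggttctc
Over the 180 bases of the homeobox, the 28 pairs among HOXB2 to HOXB9 were 58.9% to 88.9% identical (median 68.6%), with HOXB6 and HOXB7 the closest pair. HOXB13 was 51.1% to 61.1% identical to the other 8 (median 55.0%), and closest to HOXB9. The longest exact run that transcripts of a member shared with any HOX transcript outside overlapping genes was 51 bases, between HOXB6 and HOXB7. HOXB13 shared at most 20 bases, with HOXC13.

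The targeted gene was lower in the culture with its guide. TPST2 stood at 8.46 FPKM (fragments counted per kb of transcript after scaling for library size) in sgGFP and at 1.92 FPKM in sgTPST2. Read from the smallest steps in low values, 1 FPKM was worth about 42.0 fragments on a 1 kb transcript of the sgGFP library and 48.3 of the sgTPST2 library, so the sgTPST2 library was slightly the deeper. Intervals below are exact Poisson 95% intervals from these fragment numbers, taken per kb of transcript unless stated otherwise, and cover counting error only. Of 8 markers of pancreatic carcinoma cells, 5 reached 1 FPKM and 3 of these, all keratins, were 1.5-fold lower in sgTPST2. KRT8 stood at 509.9 and 41.6 FPKM, KRT18 at 583 and 85.3, and KRT19 at 189 and 12.8, while the mesenchymal filament gene VIM stood at 2661 and 3118. EPCAM was listed at 0 in both libraries, and CDH1 at 0 in sgGFP and at 0.0524 FPKM in sgTPST2. The 8 markers summed to 3945 and 3260 FPKM, most of it from VIM in both libraries, so the sums hide the lower keratins. Among markers of other cell types, all 8 acinar and islet genes were at 0 in both libraries, the fibroblast genes DCN, LUM and FAP and the leukocyte gene CD3E were at 0, and so were the endothelial genes PECAM1, KDR and TEK. The summed levels in sgGFP and sgTPST2 were 47.6 and 15.6 FPKM for 9 fibroblast genes, 6.52 and 3.71 for 8 leukocyte genes and 13.0 and 0.576 for 7 endothelial genes. In each of these lists 2 genes reached 1 FPKM, and all were lower in sgTPST2, CD14 by less than 1.5-fold. The fibroblast genes COL1A2 and COL3A1 stood at 29.05 and 3.47 FPKM and at 18.5 and 11.9. The leukocyte genes CD68 and CD14 stood at 3.32 and 1.51 FPKM and at 2.67 and 1.76. The endothelial genes EMCN and CDH5 stood at 9.64 and 0.136 FPKM and at 2.93 and 0.277. The part of these marker differences in those of the HOXB genes was not tested. In a bulk culture, fewer cells that express a gene and less RNA of it in each cell cannot be told apart.

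The run of HOXB genes from HOXB2 to HOXB9 was lower in sgTPST2, and HOXB13, which lies apart from them, was not. These values were known when the HOXB genes were chosen for description, so they describe the 2 libraries and test nothing. All 9 members were measured above 0 in both libraries, and 7 of them reached 1 FPKM in at least 1 library. HOXB3, HOXB6, HOXB8 and HOXB9 reached it in sgGFP only, so they could enter only as lower. Of these 7, 6 were at least 1.5-fold lower in sgTPST2 and 0 were higher, where fold is counted on the log2(FPKM + 1) scale. Over all 13420 genes at 1 FPKM or more, 6.94% were that much lower and 4.41% that much higher. With no filter on low values, 7 of the 9 members were lower and 0 higher, beside 1.8% lower and 1.21% higher over all 58698 genes. The other two members, HOXB4 and HOXB5, stayed under 1 FPKM in both libraries. The median difference, log2((sgTPST2 + 1)/(sgGFP + 1)), was -1.32 over all 9 members and -1.66 over the 7, beside -0.00019 over all genes past the same filter. By Cuffdiff in the authors' deposited table, the count of members with q under 0.05 is 0 of 9 and 2 have an unadjusted p under 0.05. HOXB3 has the smallest p of them by Cuffdiff in the authors' deposited table, p = 0.00375 with q = 0.355, and HOXB7 has p = 0.0375 with q = 0.99965.

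**Figure D1:**
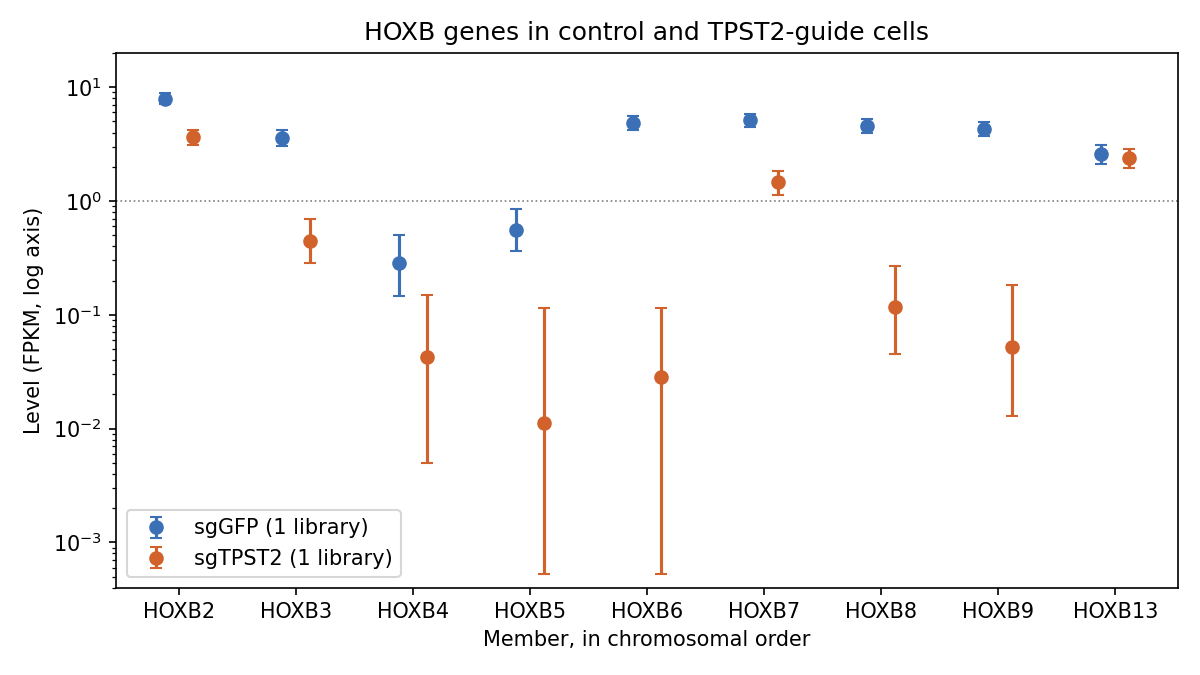
Level of each HOXB gene in FPKM on a log axis, in chromosomal order, with 1 point for each library and bars for the Poisson 95% interval per kb of transcript. The points for sgTPST2 lie below those for sgGFP from HOXB2 to HOXB9, and the 2 points of HOXB13 overlap in their intervals.

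Among the anterior genes, HOXB2, a factor of hindbrain patterning, was the most abundant HOX gene in both libraries. HOXB2 (ENSG00000173917.10, chromosome 17, 48540894 to 48544989, minus strand, GRCh38) stood at 7.94 FPKM in sgGFP (interval 7.12 to 8.85) and 3.62 FPKM in sgTPST2 (3.11 to 4.20). It kept 45.6% of its control level, the largest share among HOXB2 to HOXB9, and its difference was -0.95 on the log2(FPKM + 1) scale. HOXB3, also expressed in the developing hindbrain, stood at 3.58 FPKM in sgGFP (3.04 to 4.21) and 0.446 FPKM in sgTPST2 (0.285 to 0.689). Its control level was 8.04 times that in sgTPST2 (interval 5.03 to 13.0). HOXB3 is the widest member, spanning 48548870 to 48604912, and 7.94% of its exonic bases are also covered by exons of same-strand genes, HOXB4 and HOXB6. One exon run of 434 bases is shared with HOXB6, so part of either value may stem from reads of the other.

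The central genes held both the lowest levels and the largest difference. HOXB4, known for promoting the growth of blood stem cells, stood at 0.285 FPKM in sgGFP and 0.0422 FPKM in sgTPST2. It has 1 annotated transcript of 3757 bp, on which these values stand for about 43 and 7 fragments, a ratio of 7.02 (3.13 to 18.5). The sgTPST2 value corresponds to 7.26 fragments rather than a whole number, and 17.1% of its exonic bases lie under exons of HOXB3, AC103702.1 or MIR10A on the same strand. HOXB5, a factor of the enteric nervous system, stood at 0.562 FPKM in sgGFP and 0.0112 FPKM in sgTPST2. On its 1 transcript of 2041 bp this is 44 fragments in sgGFP and 1 fragment in sgTPST2, and the ratio of 50.0 has an interval of 8.53 to 2021. Both genes were thus lower in sgTPST2 by counts of reads, although their differences on the log2(FPKM + 1) scale, -0.30 and -0.63, are held down by levels under 1 FPKM.

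HOXB6, a gene of the trunk region, showed the largest difference of the 9. HOXB6 (ENSG00000108511.9, chromosome 17, 48595751 to 48604992) stood at 4.88 FPKM in sgGFP (4.23 to 5.59) and 0.0282 FPKM in sgTPST2, about 205 fragments per kb against 1. The difference was -2.51, which ranked 73rd from the lowest among the 13420 genes at 1 FPKM or more. The ratio of 173 has an interval of 41.8 to 9355 for 1 kb of transcript, so its size is poorly fixed although the whole interval lies above 1. Exons of the antisense gene HOXB-AS3 lie across 16.3% of the exonic bases of HOXB6, and since the sources used here do not name the strand setting of the counting, reads of the pair may be mixed.

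HOXB7 and HOXB8, which follow on the 5′ side, had like levels in the control and unlike levels in sgTPST2. HOXB7, which is overexpressed in several carcinomas, stood at 5.12 FPKM in sgGFP (4.46 to 5.85) and 1.46 FPKM in sgTPST2 (1.13 to 1.83), keeping 28.5% of its control level. HOXB8, studied in myeloid cells and the spinal cord, stood at 4.60 FPKM in sgGFP (3.97 to 5.29) and 0.117 FPKM in sgTPST2 (0.0456 to 0.270), keeping 2.55%. The intervals of the 2 genes overlap in sgGFP and do not overlap in sgTPST2. Their differences were -1.32 and -2.33. No exon of another gene covers exonic bases of HOXB7, HOXB8, HOXB9 or HOXB13, so exon overlap with annotated neighbours does not touch these 4 values. However, HOXB8 and HOXB9 lie inside the span of HOXB7 (48607227 to 48633572) on the same strand. The part of unspliced HOXB7 RNA in their values was not tested.

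Of the posterior genes, HOXB9 was nearly absent in sgTPST2 and HOXB13 was level. HOXB9, a factor of the thoracic region, stood at 4.31 FPKM in sgGFP and 0.0522 FPKM in sgTPST2. On its 1 transcript of 2581 bp these are about 435 fragments against 6, a ratio of 82.7 (37.7 to 226). HOXB13 (ENSG00000159184.7, chromosome 17, 48724763 to 48729178), a factor of the prostate and hindgut, stood at 2.60 FPKM in sgGFP and 2.39 FPKM in sgTPST2. On its 1 transcript of 3467 bp these are about 359 and 377 fragments, a ratio of 1.09 (0.939 to 1.26). The intervals of the 2 ratios are far apart, but HOXB13 was measured in the same single pair of libraries.

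The order of the members changed between the libraries. In sgGFP the order from the highest was HOXB2, HOXB7, HOXB6, HOXB8, HOXB9, HOXB3, HOXB13, HOXB5 and HOXB4. By intervals per kb, HOXB2 stood clear of HOXB7 there, and each following pair of neighbours down to HOXB13 overlapped. HOXB5 lay below HOXB13 without overlap, and HOXB5 and HOXB4 overlapped per kb. Over their whole transcripts the sgGFP intervals of HOXB5 (0.409 to 0.755 FPKM) and HOXB4 (0.207 to 0.385 FPKM) did not overlap. In sgTPST2 the order was HOXB2, HOXB13, HOXB7, HOXB3, HOXB8, HOXB9, HOXB4, HOXB6 and HOXB5. The first 5 of these were separated from one another by intervals that did not overlap, whereas those of HOXB8 and the 4 genes after it overlapped, so these cannot be ordered at this depth. Expressed as shares of the summed level of the 9 members, HOXB13 went from 7.67% in sgGFP to 29.2% in sgTPST2 while its own level was 2.60 and 2.39 FPKM, and HOXB2 from 23.4% to 44.4%.

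**Figure D2:**
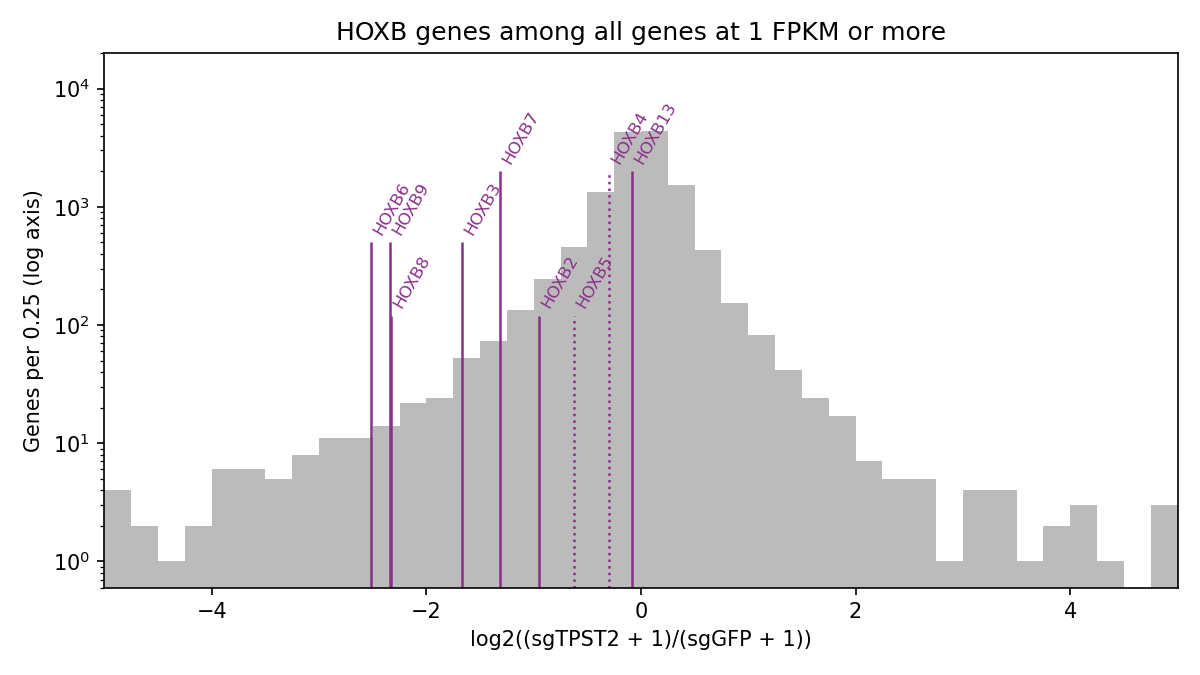
Histogram of log2((sgTPST2 + 1)/(sgGFP + 1)) over genes at 1 FPKM or more, in bins of 0.25 with a log axis of gene counts, and lines for the 9 HOXB genes (dotted for HOXB4 and HOXB5, which are under 1 FPKM). HOXB6, HOXB9 and HOXB8 lie in the left tail and HOXB13 at the centre; 31 genes fall outside the axis.

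Of the antisense transcripts within the cluster, HOXB-AS1 and HOXB-AS3 reached 1 FPKM, and both were lower as well. HOXB-AS3 (48549630 to 48606414, plus strand) stood at 4.73 FPKM in sgGFP (4.10 to 5.44) and 0.204 FPKM in sgTPST2 (0.0993 to 0.381), a difference of -2.25. By Cuffdiff in the authors' deposited table it has p = 0.0190 and q = 0.939. HOXB-AS1 (48543551 to 48551250, plus strand) stood at 2.76 FPKM in sgGFP and 0.743 FPKM in sgTPST2, a difference of -1.11. About 30.1% of the exonic bases of HOXB-AS3 and 29.6% of those of HOXB-AS1 lie under exons of HOXB genes on the other strand. As the strand setting of the counting is not named, the values of both may not be independent of the members' values. HOXB-AS2 was at 0.0360 FPKM in sgGFP and listed at 0 in sgTPST2, values whose counting intervals overlap. HOXB1, the first gene of the cluster, was listed at 0 in both libraries, as were HOXB-AS4, PRAC1, and the microRNA genes MIR10A, MIR196A1 and MIR3185. A 0 for a microRNA gene says little, since mature microRNAs are too short for such libraries. PRAC2, next to HOXB13, stood at 0.299 and 0.260 FPKM, which differ by less than their counting intervals.

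Along chromosome 17 the lower values stopped before HOXB13, while on the HOXB1 side no edge next to the cluster could be placed. The stretch from HOXB2 to the end of HOXB9 spans 85.5 kb, and 98.4 kb separate that end from HOXB13. The annotated span of HOXB7 runs past HOXB9 into this gap, to 48633572. Beyond HOXB13, CALCOCO2, an autophagy receptor gene 102 kb further on, stood at 44.1 FPKM in sgGFP and 60.9 FPKM in sgTPST2. ATP5MC1, which encodes a subunit of the mitochondrial ATP synthase, stood at 204 and 177 FPKM. Of the 7 listed genes past this end with 1 FPKM or more, 0 were 1.5-fold higher or lower, and their differences ran from -0.20 to 0.46. On the HOXB1 side, SKAP1 stood at 0.175 FPKM in sgGFP and was listed at 0 in sgTPST2. SNX11, a sorting nexin gene 418 kb from HOXB2, stood at 10.1 and 8.26 FPKM. Of 12 listed genes on that side with 1 FPKM or more, 0 were 1.5-fold higher and 1 was lower, and COPZ2 stood at 4.93 and 7.00 FPKM. Between SNX11 and HOXB2 only THRA1/BTR, named after its values were seen, reached 1 FPKM. This antisense transcript inside SKAP1 lies 232 kb from HOXB2 and stood at 2.28 FPKM in sgGFP and 0.0290 FPKM in sgTPST2. Whether its lower value and those of the cluster form 1 stretch was not tested, as no gene between them reached 1 FPKM.

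**Figure D3:**
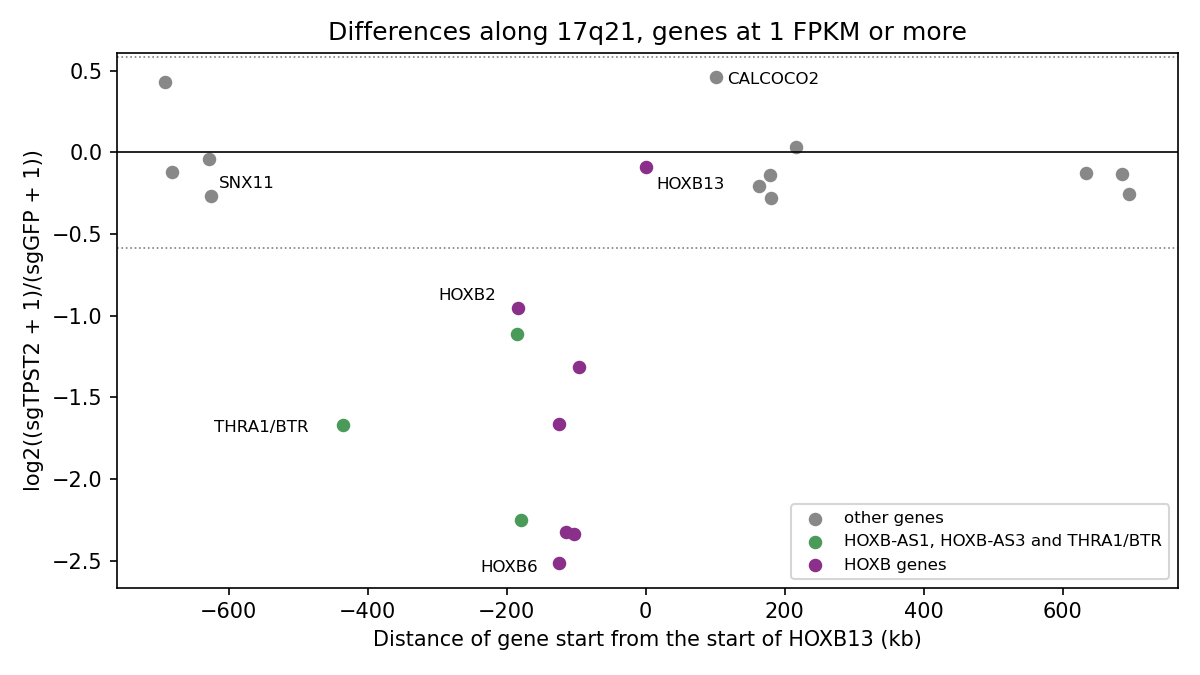
Difference on the log2(FPKM + 1) scale against the distance of each gene's start from that of HOXB13, in kb, for genes at 1 FPKM or more; dotted lines mark 1.5-fold. HOXB2, HOXB3, HOXB6, HOXB7, HOXB8 and HOXB9 (purple), HOXB-AS1, HOXB-AS3 and THRA1/BTR (green) lie below the lower line, HOXB4 and HOXB5 are under 1 FPKM and not drawn, and HOXB13 and the other genes shown lie between the lines.

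Neighbouring genes were also counted, a measure added after the values were seen, which describes these same values and tests nothing. When 13411 genes with the status OK and 1 FPKM or more were put in chromosomal order, 12 runs of at least 5 consecutive genes were each 1.5-fold lower throughout. Of these 12 runs, 9 lie on the short arm of chromosome 12. The run from THRA1/BTR through HOXB2, HOXB-AS1, HOXB3, HOXB-AS3, HOXB6, HOXB7 and HOXB8 to HOXB9 holds 9 genes and is the longest of the 3 runs elsewhere, the others being a run of 7 at the CXCL chemokine genes on chromosome 4 and a run of 5 from AC092944.1 to SHOX2 on chromosome 3. Genes of the run overlap each other, so it holds fewer separate measurements than genes. All of its genes but HOXB2 and HOXB7 reached 1 FPKM in sgGFP only, so they could enter only as lower.

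The other HOX clusters were low in both libraries, and their summed levels lay closer together than those of HOXB2 to HOXB9. The 39 HOX genes summed to 38.6 FPKM in sgGFP and 13.3 FPKM in sgTPST2. HOXB2 to HOXB9 made up 81.0% of that sum in sgGFP and 43.6% in sgTPST2. The 11 HOXA genes summed to 3.12 and 2.71 FPKM, the 9 HOXC genes to 1.59 and 2.32 FPKM, and the 9 HOXD genes to 0.0440 and 0.0652 FPKM. Only HOXA3, at 1.94 and 1.67 FPKM, and HOXC6, at 0.882 and 1.17 FPKM, reached 1 FPKM in these clusters, and 0 of the pair was 1.5-fold apart. The rest stayed under 1 FPKM, where the log2(FPKM + 1) scale holds differences down. HOXA3 was the 8th most abundant HOX gene in sgGFP and the 3rd in sgTPST2, behind HOXB2 and HOXB13. Of 17 non-coding HOX transcripts outside the HOXB cluster, 14 were at 0 in both libraries. HOTAIRM1, a transcript of the HOXA cluster, stood at 4.48 and 6.20 FPKM, and HOXA-AS2 at 4.01 and 2.44 FPKM. Whether the HOXB difference exceeds that of the other clusters could not be tested with 1 library each.

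**Figure D4:**
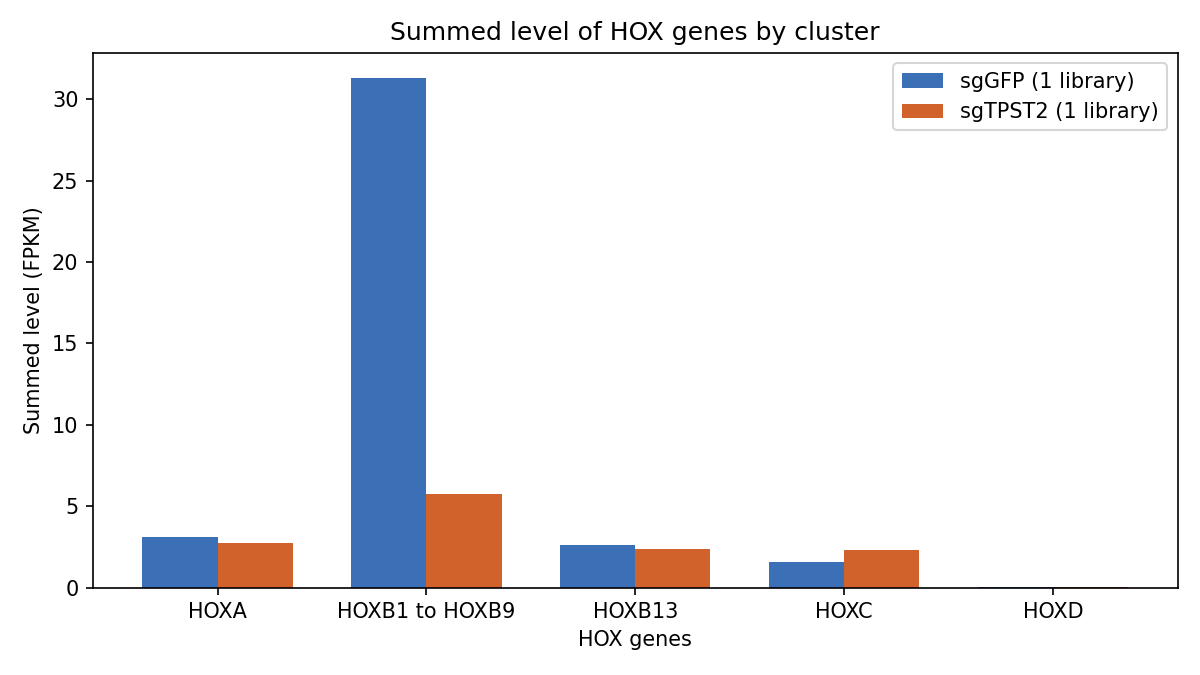
Summed level in FPKM of the HOX genes of each cluster, with HOXB13 drawn apart from HOXB1 to HOXB9 and 1 bar for each library. The bar for HOXB1 to HOXB9 goes from 31.3 in sgGFP to 5.77 in sgTPST2, while the bars of HOXB13, HOXA and HOXC stay between 1.59 and 3.12.

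Genes for the partners and regulators of HOX proteins were mostly close between the libraries. Of 8 TALE homeodomain genes at 1 FPKM or more, which include PBX and MEIS, 1 was 1.5-fold higher and 0 were lower. The higher one, MEIS2, stood at 23.5 FPKM in sgGFP and 52.2 FPKM in sgTPST2, with p = 0.0230 and q = 0.99965 by Cuffdiff in the authors' deposited table. PKNOX1 stood at 8.54 and 10.95 FPKM, PBX4 at 4.62 and 6.14, and TGIF1 at 53.5 and 61.9. Of 31 Polycomb and Trithorax genes past the filter, 1 was higher and 0 were lower, with a median of -0.0026. The higher one was CBX2, a Polycomb subunit that reads methylated histone H3, at 13.1 and 21.4 FPKM. PHF19, an accessory subunit of the Polycomb methyltransferase, stood at 87.2 and 114 FPKM, the Trithorax methyltransferase gene KMT2A at 8.61 and 6.61, and CBX6 at 29.5 and 23.4. EZH2, the catalytic Polycomb subunit, and KDM6A, a histone H3 demethylase gene, were named after their values were seen: EZH2 stood at 45.7 and 52.2 FPKM and KDM6A was listed at 0 in both libraries.

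Retinoic acid switches on the low-numbered HOX genes in embryos, and CDX factors act on HOX clusters. Of 9 genes of these inputs at 1 FPKM or more, 2 were 1.5-fold higher and 0 lower. The retinaldehyde reductase gene DHRS3 stood at 19.3 and 32.6 FPKM, and ALDH1A2, which makes retinoic acid and was named after its values were seen, at 0.683 and 2.29 FPKM. ALDH1A1, an enzyme of the same step, stood at 894 and 1280 FPKM, ALDH1A3 at 80.8 and 72.8, and the receptor gene RARG at 9.97 and 11.99. Also named after their values were seen, the gut factor gene CDX2 stood at 1.12 and 1.72 FPKM, and CYP26B1, which breaks retinoic acid down and stayed under 1 FPKM, at 0.951 and 0.195. Other lineage factors were few. Of 16 factors of pancreas and gut, 3 reached 1 FPKM and 2 of these were lower: NR5A2 at 18.3 and 0.538 FPKM, and SOX9, named after its values were seen, at 4.55 and 1.25.

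Leaving out the HOXB genes themselves, the 3 protein-coding genes with the status OK whose pair of levels lay nearest to that of HOXB6, by distance over the 2 values of log2(FPKM + 1), were SPARC, TCN1 and NTSR1. SPARC stood at 6.40 FPKM in sgGFP and is listed at 0 in sgTPST2, TCN1 at 3.81 and 0.164, and NTSR1 at 4.79 and 0.332. Their distances were 0.335, 0.339 and 0.374, over only 2 libraries. They lie on chromosomes 5, 11 and 20.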

How the data were processed

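RNA of 2 MIA PaCa-2 cultures was sequenced, 1 library each, from stranded total RNA libraries, per the labels' protocols. STAR, Cuffdiff and the build hg38 are named in the submitters' processing notes, while their versions, the annotation and the strand setting are not stated there. The deposited table gives 1 value per gene and library. The unit is not named and was read as FPKM, as Cuffdiff reports, with the authors' scaling kept. The same deposited table holds a p-value and a q-value for each gene. Its deposited log2 column is the log2 ratio of sgTPST2 to sgGFP after adding 1 to each value, which is the difference used here.

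Genes entered where the higher value reached 1 FPKM, and 1.5-fold was the call. Coordinates, exons and homeobox sequences are from GENCODE release 29 (GRCh38), whose gene identifiers match the table. 0 of the 9 members matched the RefSeq promoter table. Depth was fitted to low values of genes with 1 transcript over 1500 bp. There, 91.0% of 930 sgGFP values and 92.1% of 877 sgTPST2 values came within 0.1 of whole fragments. The fit and the fold counts were tested on simulated data (Python 3.11.15, scipy 1.17.1).

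The members and lists were chosen with earlier results of these data known. Named were all members and cluster transcripts, TPST2, and from each list up to 4 genes at 5 FPKM or more with the largest differences; others are said to be named after their values were seen. For a repeated symbol, the row with the larger mean was taken. Some genes that this rule names are not reported here.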

Additional observations from a re-analysis of the deposited data

How the results depend on the processing

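No paired analysis was possible because sgGFP and sgTPST2 have 1 library each. Leaving out a replicate was likewise not an option. The counts of 0 members higher and 6 lower by 1.5-fold were the same with pseudocounts of 0.1 and 0.01 and under the 3 rescalings (same upper quartile, same sum, centring on the median gene), and leaving out members listed at 0 or without the status OK removed no member. With no filter on low values 7 members were lower. With a minimum of 5 FPKM only HOXB2 and HOXB7 were left, so the count lower was 2 and their median was -1.13. The median difference of members was -2.75 with a pseudocount of 0.1 and -2.98 with 0.01, because a smaller pseudocount dampens low values less. No result reversed its direction. Of 45 differences of single members under these settings, 14 left their counting interval, 7 with each smaller pseudocount and 0 under the rescalings. The intervals were computed with a pseudocount of 1, and a smaller pseudocount changes the scale. Leaving them there is thus no measure of counting error. Levels under about 0.1 FPKM rest on a handful of fragments, so the size of the ratio is uncertain for HOXB4, HOXB5, HOXB6 and HOXB9. It is also uncertain for HOXB8, at 0.117 FPKM in sgTPST2, whose ratio has an interval of 16.7 to 102 per kb. Spread between cultures was not measured at all.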
